A study of Homo sapiens with 4 samples.

Results

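The genes described here are 10 components of the Scribble, PAR and Crumbs cell polarity modules, found by their gene symbols among 60623 genes in the deposited table of T24 cells. They are LLGL1, LLGL2, SCRIB and DLG1 of the Scribble module, PARD3, PARD6A, PARD6B, PRKCI and PRKCZ of the PAR module, and CRB3 of the Crumbs module. LLGL2 was put at the centre of the set because its level was higher in CBX7-overexpressing cells in these same libraries. The comparison of CBX7-overexpressing with control cells is therefore given as a description for all 10 genes, and no test of it is used in support of anything. T24 cells are a long-established human line of bladder carcinoma origin. Total RNA was sequenced in 2 libraries of control T24 cells and 2 libraries of T24 cells with ectopic CBX7, all grown in RPMI with 10% serum. The study's methods state that full-length CBX7 was cloned into a pCDH-3xFLAG vector for overexpression, while the vector carried by the control cells and whether each line came from 1 clone are not given in the sources used here. Nothing in the labels says that the libraries of a group came from separate cultures, so the spread between them may be technical.

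Epithelial cells keep an apical and a basolateral side through modules of proteins that exclude each other from the membrane. The Scribble module (SCRIB, the DLG scaffolds and the LLGL proteins) marks the basolateral side, the PAR module (PARD3, PARD6 and the atypical protein kinases C) acts at the apical junctions, and the Crumbs module (a CRB transmembrane protein with PALS1 and PATJ) marks the apical surface. Atypical protein kinase C phosphorylates LLGL proteins and thereby removes them from the apical cortex. Genes of these modules, CRB3 and LLGL2 among them, are known targets of the transcriptional repressor ZEB1 in carcinoma cells that have undergone epithelial-mesenchymal transition. CBX7 is a chromobox protein that reads histone methylation for the Polycomb repressive complex PRC1.

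The deposited expected counts (estimates that need not be whole) summed to between 20800910 and 25135488 per library. CBX7 itself, the overexpressed gene, had between 203.3 and 261.4 counts in the control libraries and between 35641 and 42852 in the CBX7 libraries, so all 4 labels matched its level. The libraries differed in a technical trend that touches several members. In the 11077 best-covered genes (mean count of 100 or more), log2 ratios within replicate number 1 (CBX7 over control) ran against gene length (Spearman correlation -0.62 across genes, which are not independent replicates) and with GC content (0.41). Within replicate number 2 these values were 0.04 and 0.07. The trend also ran between the replicates of a group, with -0.49 for length and 0.37 for GC content in control replicate 1 over control replicate 2, and -0.70 and 0.43 in CBX7 replicate 1 over CBX7 replicate 2. Replicate 1 of each group therefore read long, AT-rich genes lower than replicate 2 did, and the difference was larger in the CBX7 libraries. Ratios within a replicate number are given below for some genes only. Fewer cells that express a gene and less RNA per cell cannot be told apart in these bulk libraries.

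Compared per length, as TPM (the authors' relative transcript abundance, scaled by gene length), the 10 genes ranged in control cells from above 100 TPM down to the limit of detection. SCRIB, the scaffold that gives its module the name, was highest at 104 ± 3.06 TPM (SD, n = 2 libraries, as for all levels below). DLG1, a membrane-associated guanylate kinase scaffold, followed at 59.4 ± 8.82 TPM. PARD3 at 34.3 ± 2.76 TPM and LLGL1 at 33.2 ± 1.61 TPM came next, and their control libraries overlapped, so their order is not established. The atypical protein kinases C PRKCI and PRKCZ stood at 28.0 ± 1.12 and 24.3 ± 0.884 TPM. A wide gap separated these 6 genes from the PAR adaptor PARD6A at 3.96 ± 0.389 TPM. LLGL2 at 2.22 ± 0.0707 TPM and PARD6B at 2.09 ± 0.573 TPM again overlapped in their control libraries. CRB3, the apical transmembrane protein, was lowest, with TPM values of 0 and 0.08 in the control libraries. In CBX7-overexpressing cells LLGL2 stood above PARD6A, with 10.3 ± 0.148 against 3.54 ± 0.587 TPM.

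**Figure D1:**
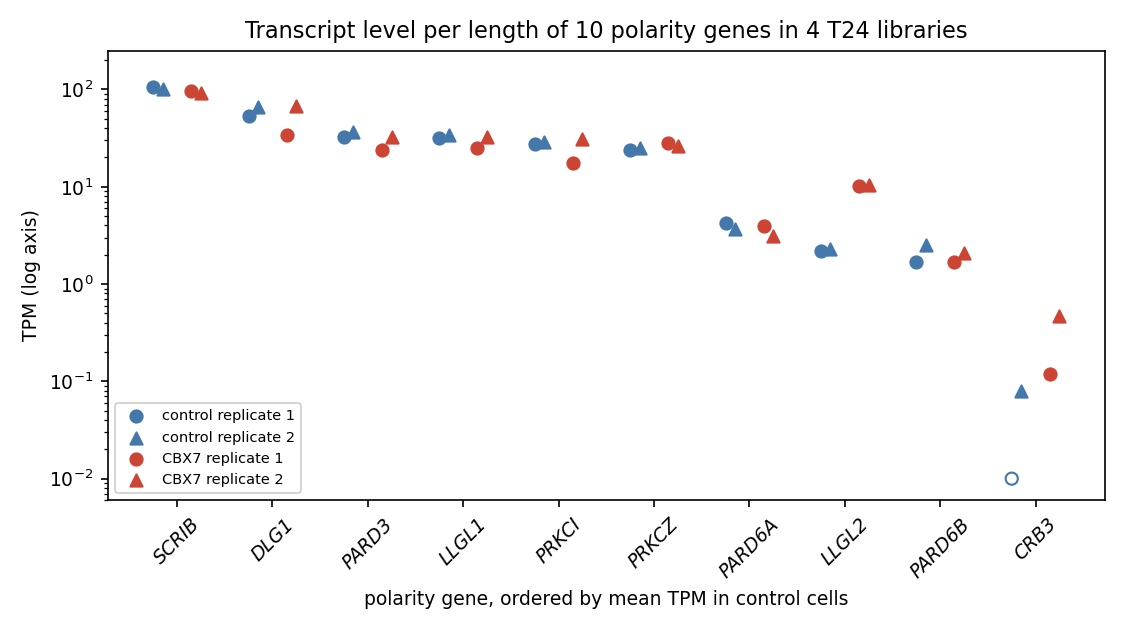
Level per length (TPM, log axis) of the 10 polarity genes in each library, ordered by the mean of the control libraries; blue marks control, red CBX7, circles replicate 1 and triangles replicate 2, and the open circle at the foot of the axis is a value of 0. LLGL2 is at 2.17 and 2.27 TPM in control and at 10.2 and 10.4 TPM in CBX7 libraries, and it is above PARD6A in the CBX7 libraries and below it in the control libraries.

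LLGL2 (ENSG00000073350), a mammalian homologue of the fly tumour suppressor lethal giant larvae that is typical of epithelia, is encoded on the plus strand of chromosome 17 (75525080 to 75575208, GRCh38). Its expected counts were 73 in control replicate 1 and 72 in control replicate 2, and 402 in CBX7 replicate 1 and 285 in CBX7 replicate 2. Both CBX7 libraries lay far above both control libraries, and the control libraries were nearly equal. In CPM (counts normalized by TMM and scaled to library size) the mean was 3.24 ± 0.262 in control and 14.7 ± 2.75 in CBX7-overexpressing cells. The fitted log2 fold change was 2.18 (standard error 0.21), a 4.53-fold higher level. It was the 32nd highest of the 14862 log2 fold changes fitted. The higher level was seen within each replicate number, with a log2 ratio of 2.41 for replicate 1 and 1.87 for replicate 2. LLGL2 has a GC content of 63.2% and so lies on the side of the trend that CBX7 replicate 1 read higher. With the length and GC trend of every library taken out, it was 2.04 (standard error 0.16).

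Its paralog LLGL1 (ENSG00000131899, chromosome 17 from 18225587 to 18244875), which shares the function and is expressed in many tissues, stood near its control level. LLGL1 had 2411 and 2165 counts in control and 2245 and 2146.9 in CBX7 libraries. Its level was 102 ± 1.47 CPM in control and 94.5 ± 2.22 CPM in CBX7-overexpressing cells, so both CBX7 libraries lay slightly below both control libraries. The log2 fold change was -0.11 (standard error 0.13). Seen as a pair, LLGL2 made up 6.34% and 6.20% of the summed LLGL1 and LLGL2 TPM in control replicates 1 and 2, and 28.8% and 24.4% in CBX7 replicates 1 and 2. LLGL1 thus remained the more abundant paralog in all 4 libraries, by 14.8 to 15.1 times in control and by 2.47 to 3.10 times in CBX7 libraries. The summed TPM of the pair was 35.4 ± 1.68 in control and 38.9 ± 5.13 in CBX7 libraries, a difference within the spread of the CBX7 libraries.

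**Figure D2:**
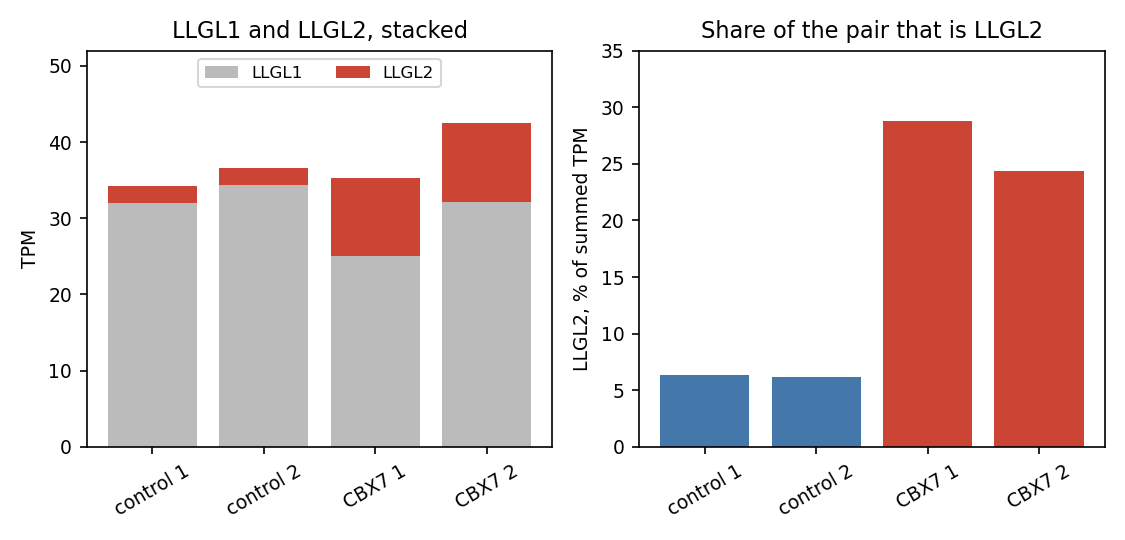
The LLGL paralogs in each library, as stacked TPM (left) and as the percentage of the summed TPM that is LLGL2 (right; blue control, red CBX7). LLGL2 makes up 6.20% to 6.34% of the pair in control libraries and 24.4% to 28.8% in CBX7 libraries, on top of an LLGL1 level between 25.1 and 34.3 TPM.

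Reads can be assigned to the wrong copy where paralogs share sequence, so the annotated transcripts of the pair were compared (GENCODE release 29). Among 6729 distinct stretches of 25 bases in LLGL1 transcripts and 8101 in LLGL2 transcripts, 1 was shared. Within the coding sequences the longest identical stretch was 23 bases. It crosses an exon junction in each gene, between exons 17 and 18 of LLGL1 (its ends at 18240859 and 18241458 of chromosome 17) and between exons 19 and 20 of LLGL2 (75572050 and 75573021). It is shown here because it is where the coding sequences of the paralogs are hardest to tell apart, with the shared bases in capitals and the flanking coding bases in lower case:
LLGL1: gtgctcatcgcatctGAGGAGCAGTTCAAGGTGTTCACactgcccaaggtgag
LLGL2: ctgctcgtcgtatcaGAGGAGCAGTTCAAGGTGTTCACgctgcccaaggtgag
The counts of LLGL2 were whole numbers in all 4 libraries. The atypical kinase pair PRKCI and PRKCZ shared no stretch of 25 bases (longest coding run 20 bases), and neither did PARD6A and PARD6B (14 bases).

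The log2 fold changes of the other Scribble members were smaller than their standard errors. SCRIB (ENSG00000180900) had 5202 and 4410 counts in control and 5761 and 4556 in CBX7 libraries. Its log2 fold change was 0.05 (standard error 0.14), and the CBX7 libraries lay on either side of the control libraries on the CPM scale. DLG1 (ENSG00000075711) had 3777.9 and 3827.9 counts in control, 2969.0 in CBX7 replicate 1 and 4083.9 in CBX7 replicate 2. The low value was confined to CBX7 replicate 1: the log2 ratio was -0.36 for replicate 1 and 0.00 for replicate 2, and the fitted log2 fold change was -0.16 (standard error 0.22). DLG1 has a GC content of 38.7% and lies on the side of the trend that this library read lower. With the length and GC trend taken out, its log2 fold change was -0.04 (standard error 0.10).

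The 5 PAR genes had log2 fold changes between -0.21 and 0.22. PARD3 (ENSG00000148498), the scaffold that nucleates the module, had 1733.1 and 1594.7 counts in control and 1518.0 and 1465.6 in CBX7 libraries. Its log2 ratio was -0.21 for both replicate numbers, and the log2 fold change was -0.21 (standard error 0.13), with both CBX7 libraries below both control libraries on the CPM scale. With the length and GC trend taken out, it was -0.09 (standard error 0.10). PARD6A (ENSG00000102981), which links CDC42 to the atypical kinases, had 80 and 59 counts in control and 90 and 52 in CBX7 libraries, and the groups overlapped on the CPM and TPM scales. Its paralog PARD6B (ENSG00000124171) had 139 and 109 counts in control and 166.0 and 134 in CBX7 libraries, a log2 fold change of 0.22 (standard error 0.19) that lies near its standard error.

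The kinases that phosphorylate LLGL proteins deviated in opposite directions in 1 library. PRKCI (ENSG00000163558) had 2145 and 2115 counts in control, 1686 in CBX7 replicate 1 and 2258 in CBX7 replicate 2. PRKCZ (ENSG00000067606) had 766.2 and 676.5 counts in control, 1035.3 in CBX7 replicate 1 and 678.6 in CBX7 replicate 2. CBX7 replicate 1 stood apart in both, low for PRKCI (log2 ratio -0.36 against 0.00 for replicate 2) and high for PRKCZ (0.42 against -0.08). PRKCI has a GC content of 39.1% and PRKCZ of 59.6%, so these opposite deviations also run with the trend of that library. With the length and GC trend taken out, PRKCI went from -0.16 (standard error 0.21) to -0.05 (standard error 0.09) on the log2 scale, and PRKCZ from 0.19 (standard error 0.19) to 0.05 (standard error 0.11). PRKCZ shares 590 exonic bases with FAAP20 on the opposite strand, a gene with 1604.7 counts in CBX7 replicate 1 and 891.5 to 1146.8 in the other libraries. The library protocol in the labels does not mention strand, so reads from this overlap cannot be told apart. The 40 exonic bases that LLGL1 shares with FLII and the 241 that DLG1 shares with DLG1-AS1 are small parts of 6638 and 11001 exonic bases.

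CRB3 (ENSG00000130545, chromosome 19 from 6463777 to 6467221) was at the limit of detection. Its counts were 0 and 1 in control replicates 1 and 2, and 1 and 5 in CBX7 replicates 1 and 2. A count of 0 allows up to 3 counts (0.119 to 0.144 CPM, depending on the library), and only CBX7 replicate 2 exceeded 3 counts. The exact 95% Poisson interval of its 5 counts, 1.62 to 11.7, overlaps the interval of 0.0253 to 5.57 around the single count in CBX7 replicate 1, and such intervals cover counting error only. At this depth a difference in CRB3 was not detectable, so its fold is left out. CRB3 was removed by the filter on low counts, so 9 of the 10 genes entered the fit. The other Crumbs paralogs were as low, with CRB1 at 0 counts in all 4 libraries and CRB2 at a single count in CBX7 replicate 2.

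The CRB3 promoter is shown because it holds the E-box letters that ZEB1 and SNAI1 are known to bind, CAGGTG and its reverse complement CACCTG. The LLGL1 promoter, which drives the abundant paralog, is shown for contrast. The stretches are the 250 bases before the RefSeq start site in GRCh38.p14, both on the plus strand, with each E-box in capitals, and the windows searched run on to 50 bases past the start:
CRB3 chr19:6464021-6464270: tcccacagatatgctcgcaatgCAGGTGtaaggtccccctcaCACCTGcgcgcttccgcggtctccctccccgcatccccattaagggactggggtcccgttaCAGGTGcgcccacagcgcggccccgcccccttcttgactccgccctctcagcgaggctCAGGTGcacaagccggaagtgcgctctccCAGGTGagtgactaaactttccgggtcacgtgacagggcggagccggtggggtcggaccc
LLGL1 chr17:18225385-18225634: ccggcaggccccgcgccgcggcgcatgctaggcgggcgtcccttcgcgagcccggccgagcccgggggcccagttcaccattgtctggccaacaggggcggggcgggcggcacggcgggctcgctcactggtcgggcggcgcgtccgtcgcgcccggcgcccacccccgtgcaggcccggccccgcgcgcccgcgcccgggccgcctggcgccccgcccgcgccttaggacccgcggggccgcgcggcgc
The CRB3 window held 5 E-boxes, 4 as CAGGTG and 1 as CACCTG, at offsets from -228 to -60 bases from the start. Of 35116 windows of 300 bases in the table, 20.6% held at least 1 and 0.094% held at least 5. The LLGL1 window, with a GC content of 84.0%, held none, and the median over all windows was 0. SCRIB was left out of the search. Windows were found for 6 of the other genes, namely LLGL1, DLG1, PARD6A, PRKCI, PRKCZ and CRB3. Of the remaining ones, PARD6A had 1 and PRKCI had 0. Of the start sites listed for DLG1 and PRKCZ, the DLG1 windows held at most 1 and the PRKCZ windows at most 3. At least 3 were held by 0.635% of all windows, and PRKCZ stood at 24.3 ± 0.884 TPM in control cells. A match is a description of the letters in these windows and says nothing about binding in T24 cells.

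Over the whole comparison, no member had a Benjamini-Hochberg adjusted p under 0.05 in the quasi-likelihood test of edgeR, against 0.0202% (3 genes) of the 14862 fitted. At an unadjusted p under 0.05 there was 1 member, LLGL2, against 4.74% of all genes. DESeq2's Wald test called LLGL2 alone among the members, and 0.451% of all genes. LLGL2 also passed the adjusted threshold without control replicate 1 (0.363% of all genes called), without control replicate 2 (0.249%) and without CBX7 replicate 1 (2.61%). Without CBX7 replicate 2 it passed together with PRKCI, DLG1 and PRKCZ, in a fit that called 36.8% of all genes. Groups that did not overlap were found for 4 of the 9 genes fitted (LLGL2 and PARD6B higher, LLGL1 and PARD3 lower in CBX7 libraries), against 30.2% of all genes, and a log2 fold change of at least 1 for LLGL2 alone, against 1.78%. Since LLGL2 was chosen on this comparison, nothing is read from these counts. The separation of the smaller differences also depended on the scale. On the TPM scale the groups of LLGL1, PARD3 and PARD6B overlapped, whereas SCRIB was lower in both CBX7 libraries (95.9 and 92.2 against 105.9 and 101.6 TPM) and PRKCZ higher (28.2 and 26.5 against 23.72 and 24.97 TPM). LLGL2 was separated on both scales. The other 8 log2 fold changes lay between -0.21 and 0.22.

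**Figure D3:**
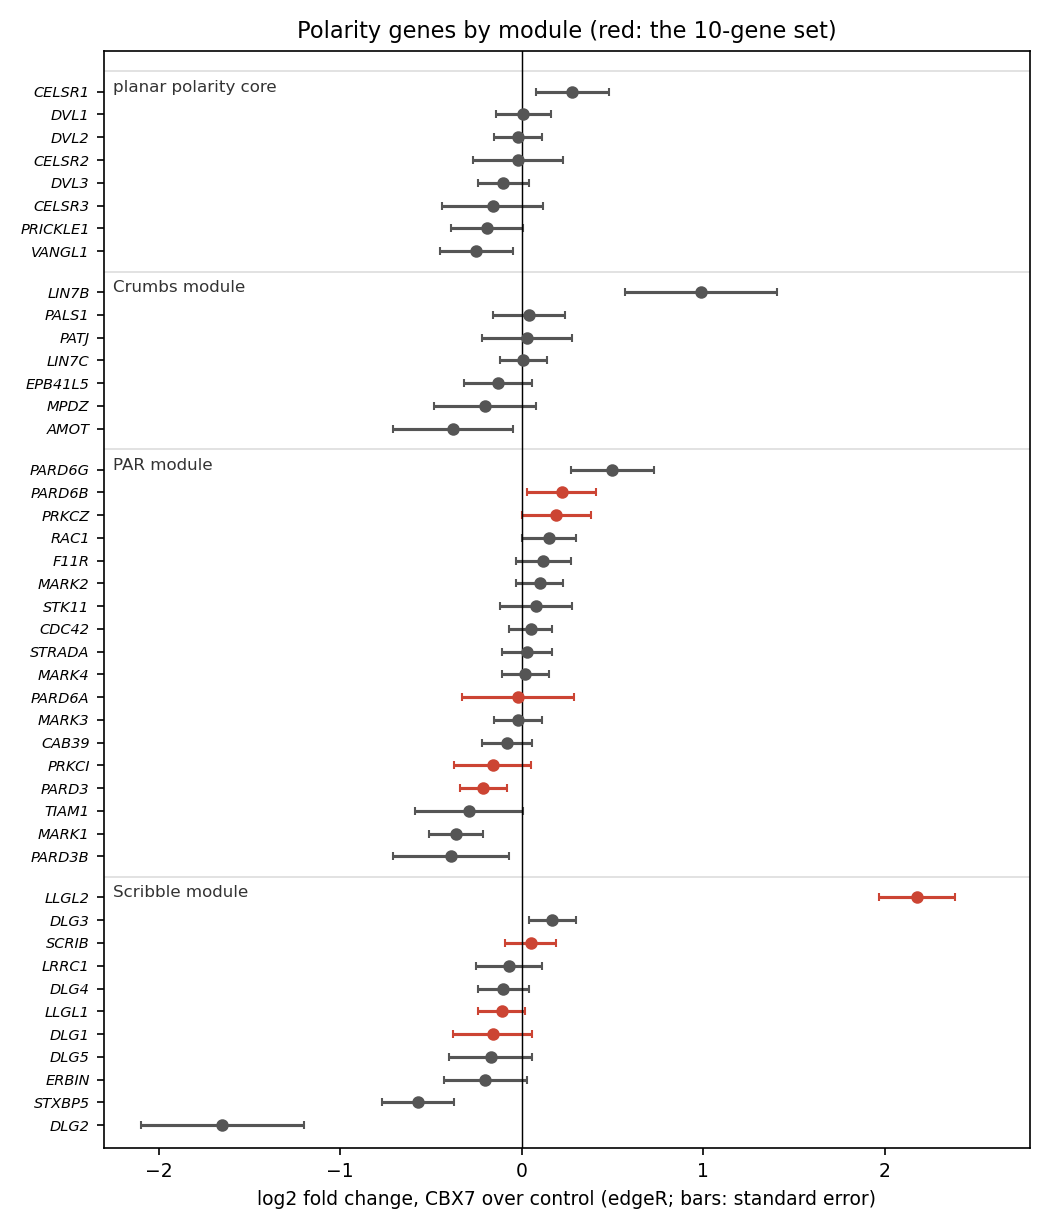
Log2 fold change of CBX7 over control with its standard error (bars) for each polarity gene that passed the filter on low counts, by module, with the 10-gene set in red and the other genes in grey. LLGL2 stands at 2.18, while the other red points lie between -0.21 and 0.22 and the grey points between -1.65 (DLG2) and 0.99 (LIN7B).

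The wider polarity machinery was examined through 41 further genes of the Scribble, PAR, Crumbs and planar polarity modules, of which 35 passed the filter. None passed the adjusted threshold in edgeR's quasi-likelihood test (0.0202% of all genes did) or in DESeq2's Wald test. An unadjusted p under 0.05 was reached by 2 genes, STXBP5 and DLG2, both lower, against 4.74% of all genes. DLG2 is named after its values were seen, and it passed the filter only through the control libraries, where it is high, so its p supports nothing. The median log2 fold change was -0.023, against 0.002 over all 14862 genes. That median depended on 1 library: it was 0.036 without CBX7 replicate 1 and -0.191 without CBX7 replicate 2. So did the calls: CELSR1 alone passed the adjusted threshold without CBX7 replicate 1, where 2.61% of all genes did, and 15 of the 35 passed without CBX7 replicate 2, where 36.8% of all genes did.

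By module, all 13 further PAR genes passed the filter and 0 of them the adjusted threshold, with log2 fold changes from -0.39 to 0.50. PARD6G, the third PARD6 paralog, had 122 and 78.0 counts in control and 158 and 134.0 in CBX7 libraries (standard error 0.23, adjusted p = 0.951 from edgeR). MARK1, a kinase of the basolateral PAR-1 family, had 289 and 253 counts in control and 217 and 219 in CBX7 libraries, a log2 fold change of -0.36 (standard error 0.15, adjusted p = 0.951 from edgeR). On the CPM scale both genes had groups that did not overlap, as did 30.2% of all genes, and both missed the threshold. In TPM the PARD6G groups overlapped, with means of 2.94 in control and 3.10 in CBX7 libraries.

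Of 8 further Scribble genes 7 passed the filter. STXBP5, a relative of the LLGL proteins also called tomosyn, had 578 and 614.0 counts in control and 369 and 463 in CBX7 libraries. This gave -0.57 on the log2 scale (standard error 0.20; edgeR adjusted p = 0.943). In TPM its groups overlapped (5.15 and 7.15 in control, 3.35 and 5.83 in CBX7 libraries). Its GC content of 35.8% puts it on the side of the trend that CBX7 replicate 1 read lower. The log2 ratio of STXBP5 was -0.66 for replicate 1 and -0.50 for replicate 2, so the lower level was not confined to CBX7 replicate 1. DLG2, a scaffold best known from neurons, was low throughout with 19 and 15 counts in control and 5 and 6 in CBX7 libraries (log2 fold change -1.65, standard error 0.45, adjusted p = 0.713 from edgeR). DLG3 and DLG4 had groups that did not overlap on the CPM scale (30.2% of all genes), at 0.17 (standard error 0.13) and -0.10 (standard error 0.14). In TPM the DLG3 groups overlapped, and the mean was lower in CBX7 libraries (15.2 against 16.4 TPM).

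The partners through which Crumbs proteins act were expressed in all 4 libraries although CRB3 was near 0. PALS1 (MPP5 in the deposited table) had 2033 and 1907 counts in control and 1810 and 2376 in CBX7 libraries, and PATJ had 481.0 and 483 in control and 408 and 608.0 in CBX7 libraries. Their log2 fold changes were 0.04 (standard error 0.20) and 0.03 (standard error 0.25). None of the 7 Crumbs-module genes fitted passed the adjusted threshold. The largest difference among them was that of LIN7B, an adaptor with 10 and 13 counts in control and 29 and 19 in CBX7 libraries (0.99, standard error 0.42, adjusted p = 0.951 from edgeR), named after its values were seen. LIN7B would not have passed the filter without the CBX7 libraries, where it is high, so its place as the largest supports nothing. None of the 8 planar polarity genes fitted passed the adjusted threshold. Their groups overlapped on the CPM scale, where 30.2% of all genes were separate, while in TPM CELSR1 was higher and DVL1 and DVL2 were lower in both CBX7 libraries.

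The description of these cells as mesenchymal-like was checked against marker genes. E-cadherin (CDH1) had at most 2 counts in any library, whereas vimentin (VIM) was between 2206 and 2757 TPM and N-cadherin (CDH2) between 34.1 and 56.5 TPM. Of 18 epithelial markers, 6 had at most 3 counts in every library, the epithelial regulators GRHL2 and OVOL1 being at 0. The simple-epithelial keratins went against a purely mesenchymal profile, with KRT8 between 853 and 954 TPM and KRT18 between 1092 and 1293 TPM. EPCAM was low at 0.58 to 1.78 TPM. Of 11 urothelial markers, 7, the uroplakins UPK1A, UPK1B, UPK2 and UPK3A among them, had at most 3 counts in every library. The urothelial transcription factors PPARG (22.8 to 25.9 TPM) and FOXA1 (6.78 to 9.36 TPM) were expressed in all 4 libraries. None of the 3 urothelial markers fitted passed the adjusted threshold. The summed TPM of the epithelial markers was 2008 to 2103 in control and 2201 to 2332 in CBX7 libraries, and that of the mesenchymal markers 3978 to 3985 in control and 2985 to 3223 in CBX7 libraries. The epithelial sum is carried almost wholly by KRT8 and KRT18. The KRT8 groups overlapped on the CPM scale, whereas in TPM both CBX7 libraries were higher (954 and 906 against 887 and 853). KRT18 was higher in both CBX7 libraries on both scales (1293 and 1215 against 1136 and 1092 TPM). On the CPM scale 30.2% of all genes had separate groups. The mesenchymal sum is carried mostly by VIM and FN1. On the CPM scale the VIM groups overlapped (log2 fold change -0.19, standard error 0.15). In TPM both CBX7 libraries (2206 and 2228) lay below both control libraries (2757 and 2726) for VIM. The median log2 fold change was 0.445 for the epithelial and -0.186 for the mesenchymal markers fitted, against 0.002 over all genes. The epithelial median includes ESRP1 (log2 fold change 1.15), with 12 and 2 counts in control and 14 and 18 in CBX7 libraries. ESRP1 would not have passed the filter without the CBX7 libraries, where it is high, so this median is a description only. None of the 8 epithelial and 11 mesenchymal markers fitted passed the adjusted threshold in edgeR. Against 4.74% of all genes, an unadjusted p under 0.05 was found for 4 markers, named here after their values were seen. They were the epithelial keratin KRT19 (log2 fold change 1.35, standard error 0.23), the epithelial splicing factor ESRP2 (0.86, standard error 0.25), fibronectin FN1 (-1.03, standard error 0.25) and the urothelial transcription factor GATA3 (2.28, standard error 0.56), with 3 and 4 counts in control and 14 and 22 in CBX7 libraries. GATA3 passed the filter on low counts only through the CBX7 libraries, where it is high, so its p supports nothing. Of 9 leukocyte and endothelial markers, 6 had at most 3 counts in every library, and the list summed to 1.5 to 2.0 TPM. The part of these marker levels in the LLGL2 difference was not tested.

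Of the repressors known to act on epithelial polarity genes, ZEB1 had 895.0 and 860.0 counts in control, 585 in CBX7 replicate 1 and 885.1 in CBX7 replicate 2. The low value was that of CBX7 replicate 1, and ZEB1, with a GC content of 38.5% and 5990 bases, is of the kind that this library read lower. For ZEB1 this gave -0.30 on the log2 scale (standard error 0.25; edgeR adjusted p = 0.951). ZEB2 had 349 and 441 counts in control and 256 and 335 in CBX7 libraries (-0.48, standard error 0.26, adjusted p = 0.951 from edgeR). Its groups overlapped on the CPM scale, whereas in TPM both CBX7 libraries (3.04 and 4.76) lay below both control libraries (5.05 and 7.65). SNAI1 was low, with 11 and 3 counts in control and 24 and 22 in CBX7 libraries (1.66, standard error 0.56, adjusted p = 0.916 from edgeR). SNAI2 had 626 and 567 counts in control and 632 and 522 in CBX7 libraries, a log2 fold change of -0.10 (standard error 0.14), its CBX7 libraries being slightly below both control libraries on the CPM and TPM scales. None of these genes passed the adjusted threshold, and SNAI1 alone had an unadjusted p under 0.05. Since SNAI1 would not have passed the filter without the CBX7 libraries, where it is high, that p supports nothing. TWIST1 was at 0 in all 4 libraries. The part of these repressors in the LLGL2 difference was not tested.

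Around LLGL2 on chromosome 17, the nearest genes fitted on either side were compared. TSEN54, a subunit of the tRNA splicing endonuclease, ends 341 bases before LLGL2 on the same strand. It had 596 and 460 counts in control and 1006 and 721 in CBX7 libraries, with both CBX7 libraries above both control libraries (log2 fold change 0.66, standard error 0.18, adjusted p = 0.713 from edgeR). CASKIN2, which lies 9497 bases before LLGL2 on the opposite strand, had 876.6 and 763.6 counts in control and 1141.7 and 1066.6 in CBX7 libraries (0.38, standard error 0.13, adjusted p = 0.916 from edgeR). Non-overlapping groups with CBX7 higher are found for 15.4% of all genes. On the far side, RECQL5 and SAP30BP, which lie 51637 and 91908 bases past LLGL2, had overlapping groups on both scales and log2 fold changes of -0.01 (standard error 0.14) and 0.10 (standard error 0.16).

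The genes whose levels followed LLGL2 most closely were found by the Euclidean distance between log2 CPM profiles, each centred on its mean, over the 4 libraries, among 12180 genes whose mean count was 50 or more. They were ARHGEF16 (distance 0.158), CRABP2 (0.190), CYGB (0.453), SH3TC1 (0.463) and FBXO2 (0.477). ARHGEF16, a guanine nucleotide exchange factor, had 34 and 35 counts in control and 206 and 158 in CBX7 libraries, a log2 fold change of 2.33 (standard error 0.23). CRABP2, a retinoic acid carrier, had 61 and 56 counts in control and 287 and 205 in CBX7 libraries, a log2 fold change of 2.01 (standard error 0.22). The likeness rests on 4 libraries and chose the genes, so it is a description.

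**Figure D4:**
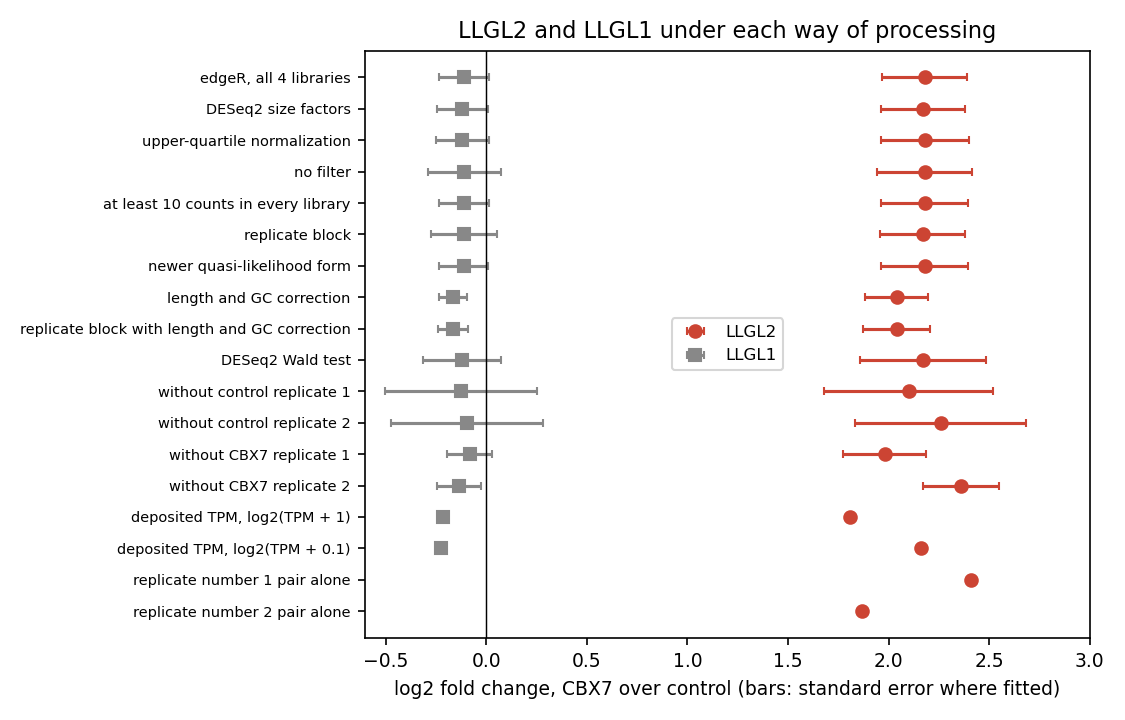
Log2 fold change of CBX7 over control for LLGL2 (red circles) and LLGL1 (grey squares) under each way of processing the counts or TPM, with the standard error (bars) where a model was fitted. LLGL2 lies between 1.81 and 2.41 and LLGL1 between -0.22 and -0.08 in every setting drawn.

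Across all of these settings LLGL2 kept its higher level in CBX7-overexpressing cells and LLGL1 lay just below 0. The sign of SCRIB changed with the length and GC correction, in TPM and without CBX7 replicate 1, and that of PARD6B in TPM. The signs of DLG1, PRKCI and PRKCZ changed only when CBX7 replicate 1 was left out (to 0.11, 0.09 and -0.08), and that of PARD6A only without control replicate 1 (0.11) or CBX7 replicate 2 (0.27), so for these 4 genes the direction rested on single libraries. With the length and GC correction SCRIB was at -0.09 (standard error 0.09), LLGL1 at -0.17 (0.07), PARD6A at -0.31 (0.20) and PARD6B at 0.35 (0.22).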

How the data were processed

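RNA of 2 control and 2 CBX7-overexpressing T24 libraries was analysed. For each gene the authors deposited expected counts (88.2% to 88.9% of values were whole), TPM values and a length. Their own fold changes, p-values and group means were not used. The submitters' processing notes name cutadapt 1.9.1, HISAT2 2.0.1, HTSeq 0.6.1, DESeq2 and hg19, with no role or order, and HTSeq gives whole counts, so the counting step is not given in the sources used here. Positions come from GENCODE release 29 (GRCh38), in which 58516 (96.5%) of the gene identifiers were found.

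Counts were rounded, filtered by filterByExpr, scaled by TMM and fitted with glmQLFit and glmQLFTest (edgeR 4.0.16, R 4.3.3, default older form) in a model of condition alone, with p-values adjusted by Benjamini-Hochberg. A standard error is the absolute log2 fold change over the root of F. DESeq2 1.42.0 was an alternative. The script was tested on simulated data. Exact two-sided permutation of 2 against 2 libraries was not used, since it cannot reach the threshold.

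The length and GC correction subtracted, per library, a spline fit (4 degrees of freedom for each property) through fitted offsets. Named genes are the 10 members, CBX7, any wider polarity gene past the adjusted threshold and the 5 with the largest log2 fold change whose mean count was 50 or more and whose groups were separate, 5 repressors, markers, the 5 genes nearest to LLGL2 in pattern and its nearest 2 neighbours per side. Any other gene named, as a partner, a marker, an overlapping gene or an exception to a count, was chosen after its values were seen. The members and lists were chosen with earlier results of these data known.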

Additional observations from a re-analysis of the deposited data

How the results depend on the processing

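The LLGL2 log2 fold change of 2.18 moved by less than the spread between replicates (SD 0.207) except to 1.81 with log2(TPM + 1), and to 2.41 and 1.87 within replicate numbers 1 and 2 alone. Leaving out 1 library gave 1.98 to 2.36. The number of members with an adjusted p under 0.05 was 0 of 9, and was 1, LLGL2, with no filter, with the replicate block, with the replicate block with length and GC correction, and with DESeq2's Wald test. Leaving out 1 library gave 1 to 4 members, LLGL2 each time, with 4 without CBX7 replicate 2. Of the wider polarity genes 0 were called, 1 (STXBP5) with the replicate block and 0 again with the replicate block with length and GC correction, and 0 to 15 when 1 library was left out, with 15 without CBX7 replicate 2. The count over all genes was 3, and 5 with the length and GC correction, 67 with DESeq2's Wald test, 106 with the replicate block with length and GC correction, 265 with no filter, 361 with the replicate block, and 37 to 5474 when 1 library was left out, the highest without CBX7 replicate 2. In those fits 1 group has a lone library, which is assumed to vary like the other group. The cause of these differences was not tested. Same-numbered libraries deviated together (correlation 0.305 across genes), but with 2 pairs and no label for a batch the numbers are not taken as pairs. At this depth CRB3, CRB1 and CRB2 could not be compared.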
